A study of Oryza sativa Indica Group with 24 samples.

Results

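The clones described here are the 100 spotted complementary DNA clones, of 7296 on the array, whose signal from drought-stressed rice leaves was lowest against that from watered leaves on day 71 after germination. They were chosen by their own ratios. On the rule's scale each ratio is the log2 of stress over control raw intensity, less the array's median over clone spots, and the 2 spots of a clone are averaged. Clones were ranked by the mean within-array rank of the product of both intensities over 21 arrays, and the 3498 clones of ranks 151 to 3648 from the brightest were kept. Of these, 1133 had their largest absolute 3-level mean of days 45 to 71 on day 71 and a ratio below 0 at all 3 stress levels that day. The members are the 100 of them with the highest minimum absolute ratio over the 3 levels. Their ratios on days 45 to 71 are therefore given as a description, with no test, and only day 75, which the rule did not use, was tested.

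The plants were the indica rice cultivar Nagina 22, sampled as leaves, 5 per plot, although the extraction protocol names panicles too. Stressed plots were held at 60% (mild), 40% (moderate) or 15% (severe) of field capacity, the water that a soil holds after draining. Stress had lasted 7 days on day 45, 33 days on day 71 and 37 days on day 75. Age and length of stress thus rose together and cannot be told apart. Each stressed sample (second channel, Alexa 594) was hybridised against leaves of the same age from a plot at 100% of field capacity (first channel, Alexa 488). There was 1 array for each level and each of 8 ages, namely days 45, 52, 55, 59, 63, 67, 71 and 75, with no dye swap, so that a dye bias stays in every ratio. By the labels, days 45 and 52 were vegetative, day 55 was before anthesis, and days 63 to 75 ran from after anthesis to seed setting, with no stage named for day 59. The labels give 1 plot code per level, so the spread between arrays is not a spread between plots. Intensities were used for 23 arrays, and the severe array of day 75 was followed only in the authors' value table.

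As rice grains fill, the leaves below the panicle are dismantled in an ordered way, and nitrogen and carbon freed from chloroplast proteins move to the seed. Water shortage at that age is known to bring this senescence forward, and transcripts of photosynthesis, which are among the most abundant in a green leaf, decline early in it. The clones carry only plate names, none of the 100 names matched the 39387 genes of the reference table, and no sequence came with them. So nothing is said here about which genes they are, nor whether several clones carry the same transcript, and the label of leaf could not be set against marker genes.

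Several features of the arrays bear on these values. On the 3 arrays of day 71 the stress channel had a high floor. The median of the 816 spots without DNA was 1696 in the stress channel and 167 in the control channel of the severe array, where the median clone had 2081 in the stress channel. The 3 arrays of day 71 carry 1 image code of their own, as do those of days 59, 63 and 67, and the scanner files fall into 2 quantification sessions that share no day. An effect of day and an effect of the array run cannot be told apart. The mild array of day 45 holds sums over 80 pixels per spot in place of means. The moderate value-table columns of days 52 and 55 correlated across clones with the scanner file of the other day, at 0.76 and 0.72, and with their own at -0.04 and 0.13. The same 100 clones were chosen when these 2 arrays were exchanged and when the mild array of day 45 was left out.

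In the control channel the members were among the brightest clones at every age. Their median percentile of intensity among all 7296 clones lay between 90.6 and 96.7 on all 23 arrays. In the stress channel of day 71 their median percentile was 57.9 in mild, 82.1 in moderate and 36.2 in severe stress, against 96.3, 95.6 and 95.3 in the control channel of the same arrays. Percentiles do not depend on how the channels are scaled. All 100 members stood lower among the stress signals than among the control signals on each of the 3 arrays. Of the 3398 other clones of the brightness range, 34.3%, 33.9% and 38.5% did so on the mild, moderate and severe array. The members were chosen for low ratios on these same arrays, so this contrast was largely set by the choice. Nothing is read from it. On the other 20 arrays the members' median stress percentile was 88.0 or higher, except on the mild array of day 52, at 69.0 against 93.0 in its control channel. On the mild and moderate arrays of day 75 it was 92.6 and 95.5, against 95.3 and 95.5 in the control channel. In such bulk samples fewer cells of a type and less RNA per cell cannot be told apart.

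**Figure D1:**
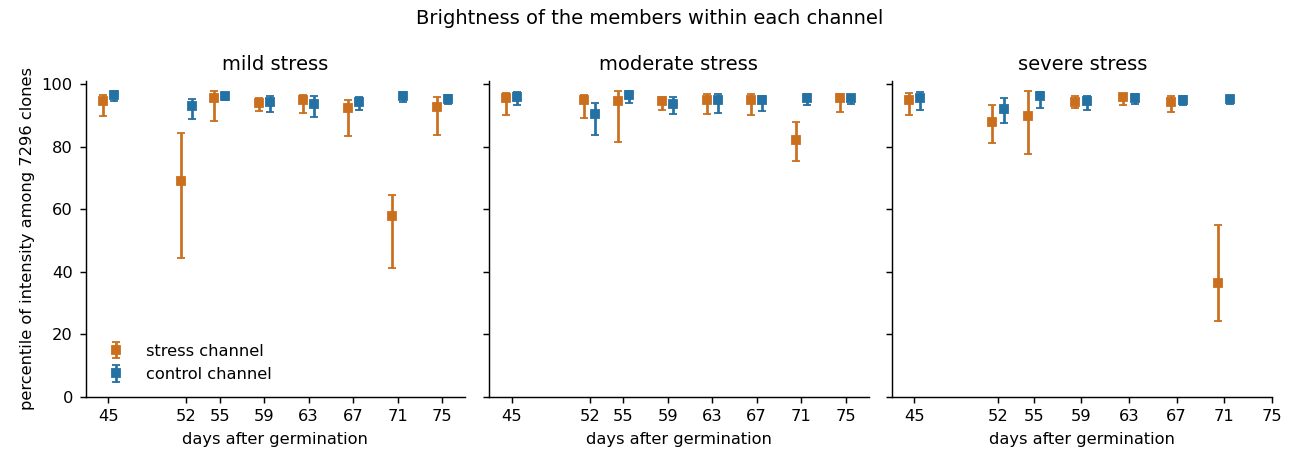
Percentile of the members' raw intensity among all 7296 clones of an array (vertical axis), by days after germination (horizontal axis), in the stress channel (orange) and the control channel (blue); squares are medians and bars the quartiles of the 100 members. The control channel stays between 90.6 and 96.7, and the stress channel of day 71 is at 57.9, 82.1 and 36.2 from mild to severe; intensities of the severe array of day 75 were not used.

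Many members had no more stress signal on day 71 than spots without DNA, taken as the 95th percentile of these empty spots. In the stress channel 40, 3 and 83 of the 100 members did not exceed that level in mild, moderate and severe stress, and all 100 exceeded it in the control channel of each array. Among all clones, 5.5%, 1.38% and 14.6% exceeded it in the control channel and not in the stress channel of these arrays. The rule used these arrays, so nothing is read from the gap. In both mild and severe stress 32 members were at or below the empty spots, 3 were so at all 3 levels, and 9 were above them at all 3. For most members the severe ratio is therefore limited by that level. In a further step the members' stress signal was set no lower than the empty-spot level. On the rule's scale they were then, at the median, 16.6-fold, 4.45-fold and 26.7-fold lower in mild, moderate and severe stress. These are not lower bounds, since the array median that the scale subtracts was not treated in this way. On the mild and severe arrays the median clone's stress signal, 3088 and 2081, was itself below the empty-spot level of 3250 and 2253. On the moderate array it was above, at 2775 against 2281.

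All further ratios are log2 ratios of stress over control after normexp background correction and loess normalisation, on which 0 is no difference and -1 is 2-fold lower in stress. On day 71 the members' ratio ran from -5.38 to -1.96 in mild stress, with a median of -4.29. It ran from -3.21 to -1.06 in moderate stress, with a median of -1.80, and from -6.66 to -2.03 in severe stress, with a median of -4.86. Level did not order the ratios: moderate stress gave the least negative ratio in 98 of 100 members. The ratios of all clones also spread least on the moderate array, with a standard deviation of 0.50, against 1.12 in mild and 1.40 in severe stress. With the arrays scaled to a common spread the members' medians were -3.59, -2.52 and -3.07 in mild, moderate and severe stress. The other clones of the brightness range had medians of -0.07, 0.05 and -0.08 on the mild, moderate and severe array. All 100 members were at -1 or lower on each array, against 15%, 6.32% and 19.5% of all clones. The 2 spots of a member differed on the rule's scale by 0.09, 0.08 and 0.14 at the median on these arrays, far less than the ratios. Without background correction the medians after loess were -3.74, -1.75 and -2.80 in mild, moderate and severe stress, so that the severe one moved most. With median centring in place of loess the severe median was -5.23 with background correction. It was -4.98 with the rule's ratio, which has no such correction. The cause was not tested.

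**Figure D2:**
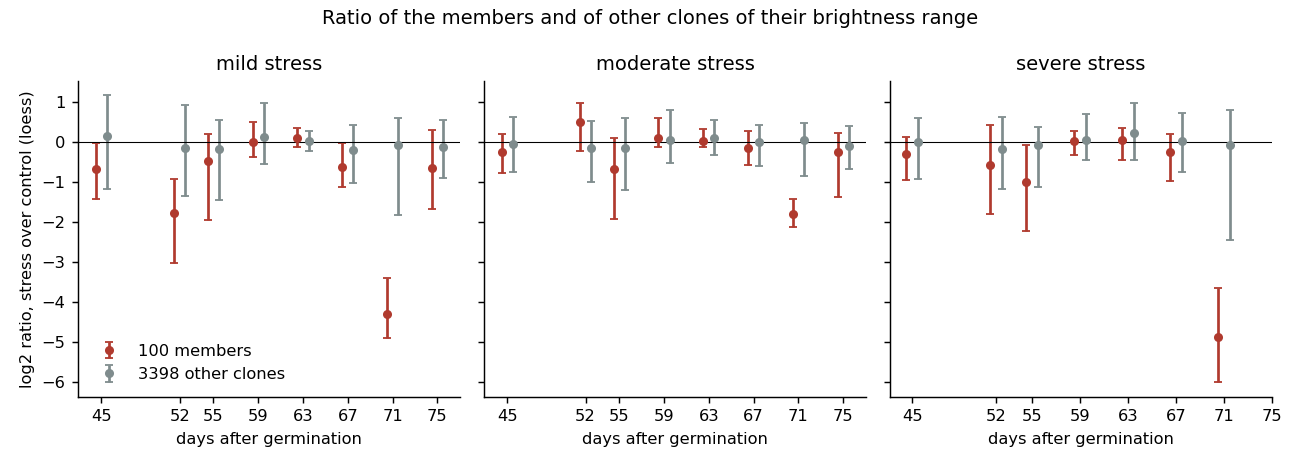
Log2 ratio of stress over control after loess (vertical axis) by days after germination (horizontal axis) for the 100 members (red) and the 3398 other clones of their brightness range (grey); points are medians and bars run from the 10th to the 90th percentile of clones. The members' medians are near 0 on days 59 and 63 and at -4.29, -1.80 and -4.86 on day 71.

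The 10 members with the highest minimum absolute ratio on day 71 were MK_PG7_G12, MK_PG8_G11, NL28_D11, NL_19_40, MK_PG8_H07, NL_17_4, NL47_D11, NL34_C09, NL_9_70 and NL_3_41. They differed in how far day 71 stood from the other ages. Clone NL_9_70 had -4.54, -2.12 and -6.09 in mild, moderate and severe stress on day 71. On the 18 arrays of days 45 to 67 its ratio ran from -0.86 through a median of -0.02 to 0.81, so that day 71 did not overlap the earlier ages. On day 75 it had -0.24 in mild and -0.21 in moderate stress, within that earlier range. Clone NL_19_40 was alike, with -4.90, -2.12 and -5.87 on day 71 and -1.18 to 0.76 on the 18 earlier arrays. In its raw signals the stress and control channels of day 71 gave 3971 and 55290 in mild, 8393 and 23420 in moderate, and 1790 and 23640 in severe stress, the last at the level of empty spots.

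Other leading members had been low before. Clone NL34_C09 had -4.54, -1.66 and -4.73 on day 71, and -4.96 on the mild array of day 52, its lowest value of all, with a median of 0.00 over the 18 earlier arrays. Clone NL47_D11 had -5.38, -2.14 and -5.95 on day 71 and -3.88 on the mild array of day 52. Clone NL28_D11 had -4.01, -2.20 and -4.38 on day 71 and -3.50 on that array, so that its moderate value of day 71 lay within its earlier range. Clone NL_17_4 had -5.06, -2.33 and -4.99 on day 71 and -2.62 on that array. Clone NL_3_41 had -4.17, -1.78 and -3.97 on day 71 and -2.93 there, and for both this was the lowest earlier value.

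The 3 leading clones with MK names were dimmer, at brightness ranks 1264 to 1343, where the median member had rank 355.5. Clone MK_PG7_G12, the first of the 100, had -2.998, -3.21 and -2.95 on day 71, but its stress signal was at or below the empty spots at all 3 levels. With its stress signal raised to the empty-spot level it was 5.54-fold, 7.83-fold and 8.66-fold lower on the rule's scale, which is no lower bound. Its raw stress and control signals were 2504 and 9297 in mild, 2205 and 8441 in moderate, and 2102 and 5975 in severe stress. On the mild array of day 52 this clone had -3.21, about as low as on day 71. Clone MK_PG8_G11 was also at or below the empty spots at all 3 levels, with -3.64, -3.16 and -3.47 on day 71 and -2.39 as its lowest earlier value. Clone MK_PG8_H07 had -3.98, -2.56 and -5.10 on day 71 and -2.45 as its lowest earlier value, on the severe array of day 55.

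**Figure D3:**
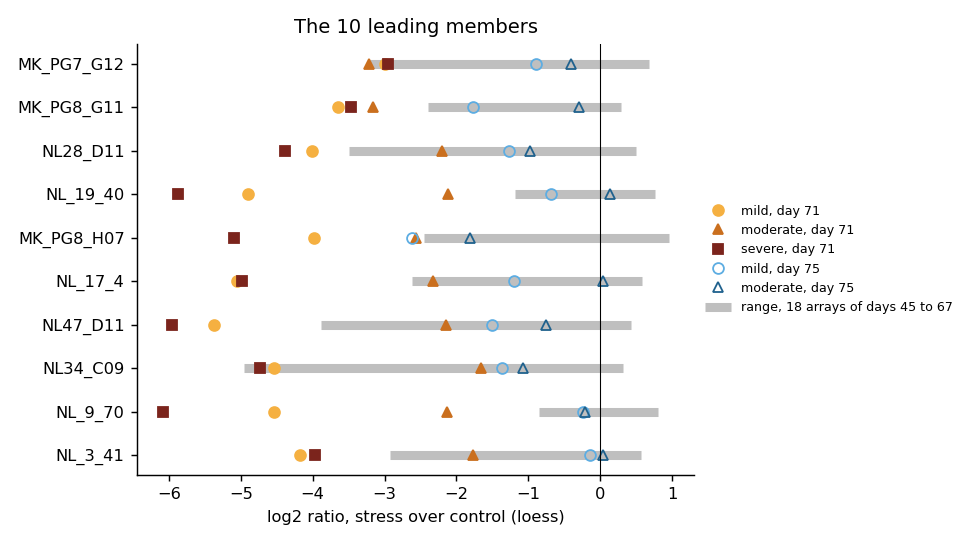
Log2 ratio of stress over control after loess (horizontal axis) for the 10 leading members (rows), with filled symbols for the 3 arrays of day 71, open symbols for the 2 arrays of day 75 and a grey bar from the lowest to the highest of the 18 arrays of days 45 to 67. For NL_9_70 and NL_19_40 all 3 values of day 71 lie left of the bar; for NL34_C09 and MK_PG7_G12 all 3 lie inside or at the edge of it.

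At the limit of the rule the values were nearly continuous. The last 3 members, NL45_C11, NL_12_92 and NL31_H08, had minimum absolute ratios of 1.973, 1.973 and 1.972 on the rule's scale. The next 3 clones, NL49_G10, MK_PG6_C11 and NL31_B10, had 1.969, 1.956 and 1.955. The moderate array set this minimum in all 6, and in 98 of the 100 members. The limit thus falls within a run of like values. With loess ratios in the rule 67 of the 100 members were chosen again, and with print-tip loess 53.

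How low the members were before day 71 depended on the normalisation. After loess 1 of the 18 arrays of days 45 to 67 had a members' median of -1 or lower, and on the rule's scale 7 did. After loess, over these 18 arrays, the median member had a median ratio of -0.18, and 85 of 100 members had a median below 0. The array that stood out was mild stress on day 52, with a members' median of -1.78 and a range from -6.61 to 0.42. There 88 members were at -1 or lower, against 12.3% of all clones, and 51 exceeded the empty-spot level with their control signal and not with their stress signal, against 4.41%. Its stress floor was high too, with a median of 4044 in the empty spots and 6206 in all clones. For 65 members this mild array held the lowest of the 18 ratios. On the severe array of day 52 more members, 64, exceeded the empty-spot level only in the control channel. There 8.35% of all clones exceeded it in the stress channel and 23.0% in the control channel. The moderate and severe arrays of the same day had medians of 0.49 and -0.58, with 0 and 23 members at -1 or lower, against 5.37% and 7.81% of all clones. The 3 levels of day 52 thus spread over more than 2 log2 units, and over 1.21 if the moderate arrays of days 52 and 55, which each matched the other day's column of the value table, were exchanged.

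On day 55, before anthesis, the members' medians were -0.48, -0.67 and -0.99 in mild, moderate and severe stress. At -1 or lower were 29, 36 and 48 members, against 12.4%, 8.06% and 7.68% of all clones. On the rule's scale the medians were -1.10, -1.16 and -1.20, and 62, 62 and 66 members were at -1 or lower, against 9.57%, 7.03% and 7.21% of all clones. On days 59 and 63 the medians lay between -0.01 and 0.10, and 2 members in all reached -1, both on the mild array of day 59. On the rule's scale the medians of these 2 days were instead above 0, from 0.25 to 1.03, so the side of 0 depends on the normalisation. The 9 other arrays of the quantification session of day 71, those of days 59, 63 and 67, had medians from -0.62 to 0.10, and the 9 arrays of the other session had -1.78 to 0.49. On day 67 the medians were -0.62, -0.16 and -0.26 in mild, moderate and severe stress. On the rule's scale they were -1.35, -0.38 and -1.48, and 82, 2 and 90 members were at -1 or lower, against 10.3%, 2.25% and 12% of all clones. After loess, the median of day 71 minus that of day 67 was -3.67, -1.64 and -4.60 at the same levels.

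Day 71 did not exceed every earlier array for each member. Some members had a lower ratio on at least 1 of the 18 earlier arrays than on day 71. Against the mild array of day 71 these were 6 members, against the moderate one 63 and against the severe one 5. Such counts were not made over all clones or over the other clones of the brightness range. The rule chose clones whose mean ratio was farthest from 0 on day 71, so the low counts in mild and severe stress were largely set by the choice. Nothing is read from them. The members also varied together before day 71. Over the 18 earlier arrays the 4950 pairs of members had a median correlation of 0.87 on the rule's scale, from 0.27 to 0.99. After loess, which takes out what bright clones of an array share, the median was 0.62 and the range -0.36 to 0.98. The points of each correlation share array, dye and brightness.

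The members shared brightness and place on the array. Brightness ranks 151 to 650 held 84 members among 500 clones, ranks 651 to 1150 held 10 among 500, and ranks 1151 to 3648 held 6 among 2498. Brightness was part of the rule, so nothing is read from these shares. By name, 47 members began with NL_, 40 with NL and a number, and 13 with MK. These were 5.26% of the 894 NL_ clones, 1.7% of the 2353 NL clones and 5.18% of the 251 MK clones of the brightness range. By print row the share was lowest in rows 3 and 4, at 0.684% of 585 clones, and highest in rows 11 and 12, at 6.78% of 177 clones. All 816 clones of rows 11 and 12 have MK names, and 12 of the 13 MK members lay there, so that name and place cannot be told apart for them. In rows 7 and 8, which hold both kinds of NL name, 5.51% of 345 NL_ clones and 1.97% of 457 NL clones of the range were members.

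**Figure D4:**
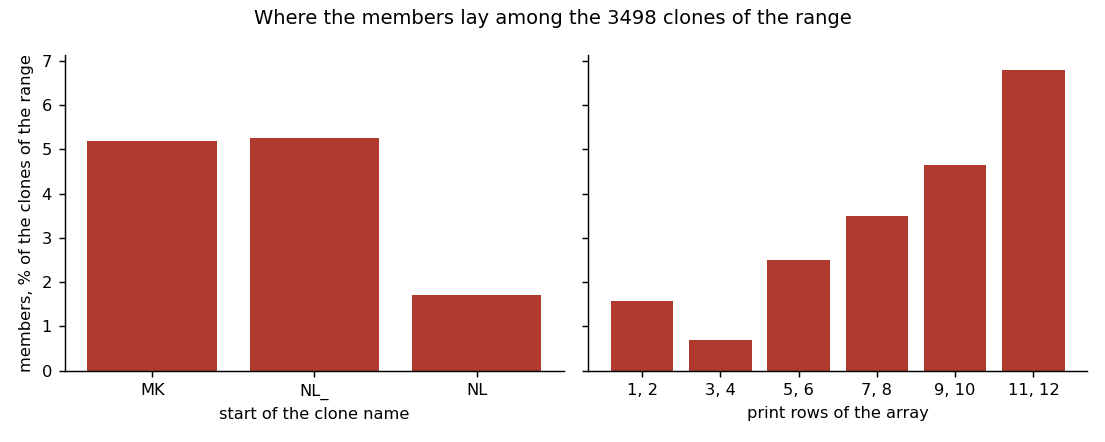
Members as a percentage of the clones of the brightness range (vertical axis, from 0), by the start of the clone name on the left and by pairs of print rows on the right; each bar is a share of clones and has no replicate. The shares are 5.18%, 5.26% and 1.7% for MK, NL_ and NL names, and run from 0.684% in rows 3 and 4 to 6.78% in rows 11 and 12.

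The MK members had medians on day 71 of -4.40, -1.97 and -4.29 in mild, moderate and severe stress, and the other MK clones of the brightness range also had medians below 0, of -1.49, -0.74 and -2.08. With print-tip loess, which centres each print block on its own clones, the MK members had -2.41, -1.16 and -0.40. Then 2 of 13 were at -1 or lower at all 3 levels. By contrast, NL_ members had -4.51, -1.78 and -5.13 after loess on the whole array and -3.97, -1.56 and -4.89 with print-tip loess. NL members had -4.08, -1.80 and -4.72, and with print-tip loess -4.20, -1.92 and -4.63. With print-tip loess 38 of 47 NL_ members and 38 of 40 NL members were at -1 or lower at all 3 levels. The part of the block in the low ratios of the MK members was not tested.

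Day 75 asked whether the ratios were still low at the next age, on arrays that had no part in the choice. In limma's fit over 23 arrays, with the mild and the moderate array of day 75 against 0, none of the 100 members and none of the 7296 clones passed an adjusted p of 0.05 (0% called, smallest adjusted p = 0.106). At an unadjusted p under 0.05, 15 members were lower and 0 higher, against 4.17% of all clones lower. The residual spread included the 3 arrays of day 71, on which the members were chosen. The members' median standard error was 0.52, against 0.32 for all clones. Without those 3 arrays limma called 6 members and 66 clones, all 6 with MK names and all lower. Leaving out the moderate array of day 71 alone also called 6 members, among 59 clones, and leaving out the severe one called 1, among 12 clones. With level as a factor beside the day, limma called 2 members, MK_PG8_H07 at an adjusted p = 0.0071 and MK_PG9_C01 at 0.029, among 19 clones.

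As values, the members were a little below 0 on day 75 and far above their level of day 71. The mean of the 2 arrays ran from -2.26 to 0.59 with a median of -0.44, and 83 of 100 members were below 0. With print-tip loess the median was -0.23, with 79 members below 0, and with median centring -0.76, with 99. With the rule's ratio it was -0.67, also with 99. Of the other clones of the range 62.8% were below 0, with a median of -0.12, and of all clones 49.4%, with a median of 0.01. In mild stress the members' median was -0.65, and 39 were at -1 or lower, against 4.7% of all clones. In moderate stress it was -0.25, and 14 were at -1 or lower, against 2.88%. In mild stress all 100 and in moderate stress 96 members had a higher ratio on day 75 than on day 71. The members were chosen for their low ratios on day 71, so this gap was largely set by the choice. Nothing is read from it. Both arrays were below 0 for 60 members and above 0 for 12, counts that were not made over all clones. The 2 arrays disagreed most for NL9_F08, singled out after its values were seen, with 0.60 in mild and -2.06 in moderate stress. On the mild and moderate arrays 9 and 0 members exceeded the empty-spot level with their control signal and not with their stress signal, against 5.44% and 7.24% of all clones.

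The members low on both arrays of day 75 were mostly those with MK names. Both arrays were below 0 for all 13 MK members, at -1.73 in mild and -1.72 in moderate stress at the median, and 10 of the 13 were at -1 or lower on both. The other MK clones of the range had -0.50 and -0.69. The NL members had -0.997 and -0.34, with 1 of 40 at -1 or lower on both arrays, and the NL_ members had -0.33 and -0.01, with 1 of 47. Counts on both arrays were not made over all clones or over the other MK clones. How far the MK members' counts exceed those is therefore not known. On the single arrays 4.7% (mild) and 2.88% (moderate) of all clones were at -1 or lower. In mild stress alone the 39 members at -1 or lower were 11 MK, 20 NL and 8 NL_ clones, and in moderate stress the 14 were 11, 2 and 1. Of the 15 members with an unadjusted p under 0.05, 12 had MK names. With print-tip loess the MK members had -0.38 in mild and -0.11 in moderate stress, against -0.15 and -0.18 in the other MK clones. The NL members then had -0.44 and -0.23, and the NL_ members -0.10 and -0.16. Under this setting the NL members, and no longer the MK members, were thus the lowest of the 3 kinds of name.

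**Figure D5:**
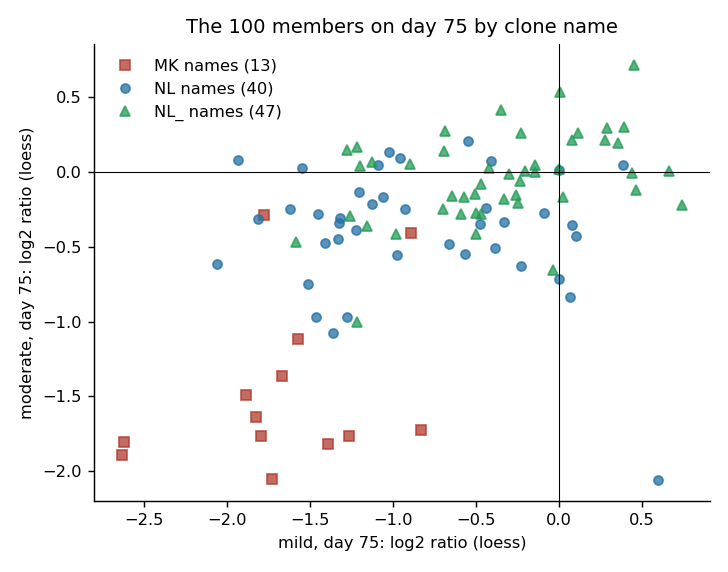
Log2 ratio of stress over control after loess on day 75, mild stress (horizontal axis) against moderate stress (vertical axis), 1 point for each of the 100 members, marked by the start of the clone name. The 13 MK members lie at the lower left, with medians of -1.73 and -1.72, and the 47 NL_ members have medians of -0.33 and -0.01. The point at the lower right is NL9_F08, with 0.60 and -2.06.

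The lowest mean ratios of day 75 belonged to MK_PG9_C01, MK_PG8_H07 and MK_PG6_B05. Clone MK_PG9_C01 had -2.63 in mild and -1.89 in moderate stress, a mean of -2.26 with a standard error of 0.51 and limma's adjusted p = 0.134. It had -5.34, -2.12 and -4.91 on day 71. Clone MK_PG8_H07 had -2.62 and -1.81, a mean of -2.21 with a standard error of 0.43 and limma's adjusted p = 0.106. Clone MK_PG6_B05 had -1.73 and -2.05, a mean of -1.89 with a standard error of 0.62 and limma's adjusted p = 0.416. These 3 were among the 6 members called without the arrays of day 71, with limma's adjusted p = 0.0026 for the first 2 and 0.0071 for MK_PG6_B05. Over the 16 alternatives limma's adjusted p ran from 1.27e-10 to 0.9999 for MK_PG9_C01, from 2.13e-10 to 0.9999 for MK_PG8_H07 and from 4.25e-08 to 0.9999 for MK_PG6_B05, lowest with the 2 arrays of day 75 alone.

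The highest mean ratios belonged to NL_15_45, NL_17_54 and NL_15_63. Clone NL_15_45 had 0.46 in mild and 0.72 in moderate stress on day 75, after -4.82, -1.37 and -5.24 on day 71. Clone NL_17_54 had 0.39 and 0.30, after -5.21, -1.999 and -5.47. Clone NL_15_63 had 0.67 and 0.01, after -3.90, -1.22 and -5.63. Their standard errors were 0.54 to 0.58, so none differed from 0 on day 75 beyond the spread in limma's fit.

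The authors' value table, which holds log2 ratios centred per spot over the 8 days of a level, gave day 71 and day 75 side by side for all 3 levels. It was used here without print rows 11 and 12, which left 88 of the 100 members. The 12 members left out all have MK names. Day 71 was below day 75 in all 88 at each level, with a median difference of -2.95, -2.04 and -5.40 in mild, moderate and severe stress. Over all clones the same differences had medians of 0.11, -0.10 and -0.08. The members were chosen for low ratios on the same arrays of day 71, so this contrast was largely set by the choice. Nothing is read from it. Because of the centring, a low value on day 71 raises the other 7 days of its level, so the side of 0 on day 75 cannot be read from this table.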

How the data were processed

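Rice leaf RNA was measured on spotted 2-colour arrays. Per the file headers, the deposited scanner files hold raw spot intensity and local background for each channel; the authors' value table and 2 short tables hold log2 ratios. The steps before the authors centred that log2 table are not given in the sources used here. Intensity for mild day 75 was joined by clone name, and for moderate day 75 by file order, since its names are cut short. For mild day 75, joins by name and by position differed in print rows 11 and 12, where 12 of the 13 MK members lie. There the rank correlation of brightness with the scanner files was 0.54 by name and 0.12 by position. In the other print rows it was 0.66 by either.

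From the intensities, log2 ratios were made with limma 3.58.1 in R 4.3.3 by normexp (offset 50) and 1 loess curve per array (span 0.3, 4 iterations) over clone spots, without spots marked to be ignored (0 to 187 per array), and duplicates were averaged. The rule's ratio used raw intensity. Means of day 75 were tested against 0 in limma over 23 arrays with day as the factor, adjusted by Benjamini-Hochberg over 7296 clones; p-values measure the spread between levels of a day. The number of arrays limits the precision. The fit was tested on simulated data.

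The named clones are the 10 members with the highest minimum absolute ratio on day 71, the 3 on either side of the limit, and the 3 lowest and 3 highest on day 75. Members, lists and tests were chosen with earlier results of these data known.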

Additional observations from a re-analysis of the deposited data

Results flagged for a closer look

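In 9 sets of array values (the members' median ratio, stress percentile and control percentile, each at 3 levels over 7 or 8 days), the array farthest from the others was set apart in 6 by Dixon's 95% criterion. In 4 of the 6 it was an array of day 71, which the rule chose the members on, so these 4 are a description and no test. The members' median log2 ratio of day 71 was -4.29 in mild stress, with -1.78 on day 52 next, and -4.86 in severe stress, with -0.99 on day 55 next. The median stress percentile of day 71 was 82.1 in moderate stress, next to 94.5, and 36.2 in severe stress, next to 88.0. In the other 2 the control percentile was lowest on day 52, at 90.6 in moderate stress, next to 93.7, and 92.0 in severe stress, next to 94.5. Chance sets an array apart in about 1 set in 20, and the sets share their arrays.

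The severe column of day 75 in the authors' value table had a median of 1.34 over 88 members, against 0.14 over all clones, and the mild and moderate columns of that day had 0.05 and 0.10 over the members. These values are centred per spot within a level, and the severe day 71 median of -3.90 is part of that centring. No array intensities of severe day 75 were used.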

How the results depend on the processing

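The members' medians of day 71 stayed below 0 at each level in the 7 alternatives tried, and most moved by more than the spread of duplicate spots. In mild stress (-4.29) they were -3.74 without background correction, -3.88 with print-tip loess, -4.18 with median centring, -4.13 with the rule's ratio, -3.59 with scaling between arrays, -3.42 in the authors' value table (day 71 minus the mean of days 45 to 67) and -4.06 with the stress signal held at the empty spots, an alternative added after the data were seen. At each level the held signal is on the rule's scale, so its value stands beside that of the rule's ratio and not beside the loess median. In moderate stress (-1.80) they were -1.69 with print-tip loess, -2.16 with the rule's ratio, -2.52 with scaling, -2.15 in the value table and -2.15 with the held signal. In severe stress (-4.86) they were -2.80 without background correction, -4.58 with print-tip loess, -5.23 with median centring, -4.98 with the rule's ratio, -3.07 with scaling, -4.26 in the value table and -4.74 with the held signal. With print-tip ratios in the rule, 53 members were shared.

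Limma's calls on day 75 (0 members and 0 clones) became 1 member and 7 clones without background correction, 0 and 3 with print-tip loess, 12 and 157 with scaling, 24 and 273 with the 2 arrays of day 75 alone, 2 and 19 with level as a factor, and 6 and 66 without the arrays of day 71, added after the data were seen. Leaving out single arrays gave 0 to 6 members and 0 to 59 clones, the most without moderate day 71, and a members' median of -0.65 to -0.25. That median (-0.44) was -0.76 with median centring, -0.67 with the rule's ratio and -0.23 with print-tip loess. The causes were not tested.

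The named clones' day 75 means turned sign in 21 of 336 comparisons, each within 0.5 of 0 under the alternative. With print-tip loess MK_PG7_G12, MK_PG8_G11 and MK_PG6_C11 had 0.33, 0.33 and 0.094, and NL45_C11, NL49_G10 and NL_15_63 had -0.044, -0.17 and -0.11. With median centring NL45_C11, NL49_G10, NL_15_63 and NL_17_54 had -0.41, -0.40, -0.081 and -0.059, and with the rule's ratio -0.37, -0.37, -0.073 and -0.036. With level as a factor NL45_C11 and NL49_G10 had -0.13 and -0.013. When single arrays were left out, NL_19_40 ran from -0.69 to 0.14, NL_17_4 from -1.20 to 0.038, NL_3_41 from -0.14 to 0.046, NL31_H08 from -1.09 to 0.048 and NL49_G10 from -0.068 to 0.21. Each ratio already pairs a stressed sample with the control of the same age on its array. The labels give no replicate numbers for a further pairing, and the fit with level as a factor is the one that blocks on the plots. In severe stress on day 71, 83 of 100 members had a stress signal no higher than the empty spots, more than in mild or moderate stress.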
